A study of Mus musculus with 2 samples.

Results

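The 40 genes described here carry cells through DNA replication and division: 15 replication genes of S phase and 25 mitosis genes of G2 and M phase. They were chosen by name, and all 40 symbols were found among the 27998 genes of the deposited tables. The study measured single-cell RNA in cochleae of wild type C57BL/6 mice at postnatal day 20. All samples belong to 1 group, sequenced as 2 libraries. Each label gives 5 to 8 mice as the source, so each library pools animals, and no treatment or second genotype is involved. The labels do not say that the libraries came from separate animals, so the spread behind the p-values below may be technical. It is the spread left between these 2 libraries once their general difference is taken out. It was estimated over all 14 classes fitted and drawn towards that of other genes. A p-value thus does not measure how far the libraries differ in the compared class alone.

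A dividing cell first copies its DNA. The MCM helicase is loaded and opens the double helix, the PCNA clamp holds the polymerases on the template, and ribonucleotide reductase and thymidylate synthase supply the nucleotides. The genes of the second group then act: cyclins A and B drive the kinase CDK1, condensed chromosomes attach to the spindle, and the anaphase-promoting complex releases the sister chromatids. Hair cells and most other cells of the mature mammalian cochlea do not divide, whereas erythroid, B lineage and granulocyte precursors of the bone marrow divide rapidly as they mature.

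A barcode entered when it had 300 genes or more and no more than 20% of its UMIs (unique molecular identifiers, each a counted transcript) from mitochondrial genes, which left 1331 in library 1 and 644 in library 2. 2 barcode sequences occurred in both libraries. Cells were clustered without the cell cycle genes, and clusters were named from markers. The erythroid cell-like class held 410 and 39 cells, the B lineage-like class 72 and 1, and the granulocyte and monocyte precursor-like class (granulocyte precursor-like below) 61 and 4. Non-blood classes, fibroblast-like, supporting cell-like and hair cell-like cells among them, held 769 and 584 cells together. In library 1 the erythroid markers made up 70.9% of all UMIs of the erythroid cell-like class and 1.10% of those of non-blood cells. Per 10000 UMIs outside haemoglobin, B lineage markers had 82.1 UMIs in their class and 12.4 in non-blood cells. Granulocyte markers had 1394 in their class and 3.32 in non-blood cells. The markers gave the classes their names, so these values describe the names and do not test them. With 1 B lineage-like cell, library 2 gives no usable B lineage value. It rests on 4 cells for the granulocyte precursor-like class, so the shares and levels of these classes rest on library 1. Fitted contrasts of the granulocyte precursor-like class take in both libraries. Because haemoglobin transcripts filled most of the reads of maturing red cells, levels are given as a share of the UMIs outside haemoglobin genes. Intervals are exact Poisson or binomial 95% intervals and cover counting error only.

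The cell cycle genes were abundant in 3 blood lineages and near the background elsewhere. In erythroid cell-like cells the replication genes made up 0.358% (95% interval 0.348 to 0.368) of the UMIs outside haemoglobin in library 1 and 0.295% (0.258 to 0.335) in library 2. The mitosis genes made up 1.01% (0.991 to 1.02) and 1.20% (1.12 to 1.28). Both libraries thus gave the erythroid class more mitosis than replication UMIs, with replication to mitosis ratios of 0.355 (0.344 to 0.367) and 0.246 (0.212 to 0.285). The pooled shares weight deep cells: the 32 cells with least haemoglobin held 3073 of the 5057 replication UMIs of the class in library 1. As a mean over cells the replication share was 0.166% and 0.0977%, the mitosis share 0.740% and 0.671%, and the ratio 0.224 and 0.145. B lineage-like cells of library 1 had a replication share of 0.346% (0.333 to 0.360) and a mitosis share of 1.22% (1.20 to 1.25), a ratio of 0.283 (0.226 as a mean over cells). Granulocyte precursor-like cells of library 1 had 0.143% (0.134 to 0.152) and 0.539% (0.522 to 0.557), a ratio of 0.265, so both shares were lower there than in the other 2 lineages. The 4 granulocyte precursor-like cells of library 2 held 2 replication and 15 mitosis UMIs among 27867, and all 15 were from Hmgb2. In these 4 cells the late granule genes led or tied.

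Macrophage-like cells, also of blood origin, had replication shares of 0.0204% and 0.0193% and mitosis shares of 0.0473% and 0.0260%. In non-blood cells the replication share was 0.0116% and 0.0121%, and the mitosis share 0.0156% and 0.0104%. Hair cell-like cells of library 1, which serve as the background because hair cells do not divide, had 0.0109% and 0.0315%, and 119 of their 239 mitosis UMIs came from a single barcode. Droplets also carry free RNA. The mitosis share was higher in library 1 in 12 of the 12 non-blood classes with cells in both libraries, and the replication share in 5 of them. Library 1 is also the library with more dividing blood cells, and the part of free RNA in the non-blood levels was not tested.

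**Figure D1:**
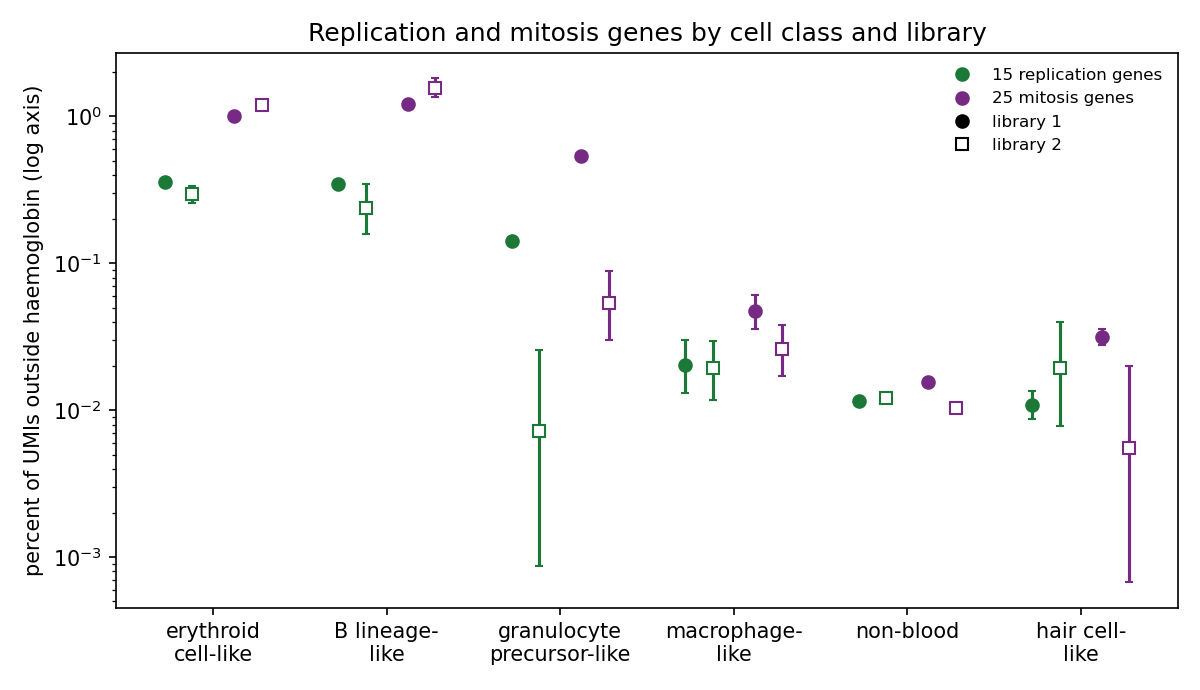
Replication (green) and mitosis (purple) genes as a percent of UMIs outside haemoglobin, on a log axis, by cell class; filled circles are library 1, open squares library 2, and bars are 95% Poisson intervals of counting. Erythroid cell-like values of both libraries lie at 0.295% to 1.20%, the granulocyte precursor-like values of the libraries lie far apart, and macrophage-like, non-blood and hair cell-like values lie at 0.0473% or lower.

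Promoter sequences show a feature that the choice of genes did not use. RefSeq start sites on GRCm38.p6 gave windows from 250 bases before to 50 after the start for 34 of the 40 genes. These were 15 windows of 13 replication genes and 22 windows of 21 mitosis genes, beside 32851 windows of all genes. 3 motifs were searched on both strands: CCAAT, the CHR element (TTTGAA or TTCGAA) and an E2F-type site (TTTGGCGC, TTTCGCGC, TTTCCCGC or TTTGCCGC). CCAAT occurred in 20 of the 22 mitosis windows (90.9%), 11 of the 15 replication windows (73.3%) and 37.4% of all windows. CHR occurred in 18 mitosis windows (81.8%), 2 replication windows (13.3%) and 19.2% of all windows. An E2F-type site occurred in 8 replication windows (53.3%), 1 mitosis window (4.55%) and 2.26% of all windows. Counted in the 150 bases before the start alone, CHR occurred in 8 mitosis windows (36.4%) and an E2F-type site in 4 replication windows (26.7%), against 9.70% and 1.24% of all windows.

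6 genes that recur below are shown as the 150 bases before the RefSeq start, 5′ to 3′ on the gene's strand, with motif matches in capitals (ATTGG is CCAAT on the other strand, TTCAAA is TTTGAA, GCGCCAAA is TTTGGCGC and GCGCGAAA is TTTCGCGC). Ube2c, Ccnb2 and Cdc20 are mitosis genes, at chr2:164769779-164769928 on the plus strand, chr9:70421555-70421704 on the minus strand and chr4:118437344-118437493 on the minus strand. Rrm2, Mcm6 and Mcm5 are replication genes, at chr12:24708104-24708253 on the plus strand, chr1:128359706-128359855 on the minus strand and chr8:75109359-75109508 on the plus strand.
Ube2c: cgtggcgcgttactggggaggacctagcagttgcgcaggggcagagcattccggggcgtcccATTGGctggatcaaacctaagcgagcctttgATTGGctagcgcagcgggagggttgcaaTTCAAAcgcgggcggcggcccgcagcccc
Ccnb2: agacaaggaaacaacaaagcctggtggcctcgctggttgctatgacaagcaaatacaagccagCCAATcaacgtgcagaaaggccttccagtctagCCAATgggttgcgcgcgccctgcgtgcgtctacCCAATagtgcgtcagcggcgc
Cdc20: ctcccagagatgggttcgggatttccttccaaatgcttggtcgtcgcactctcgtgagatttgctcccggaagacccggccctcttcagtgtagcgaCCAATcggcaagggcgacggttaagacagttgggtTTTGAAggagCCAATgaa
Rrm2: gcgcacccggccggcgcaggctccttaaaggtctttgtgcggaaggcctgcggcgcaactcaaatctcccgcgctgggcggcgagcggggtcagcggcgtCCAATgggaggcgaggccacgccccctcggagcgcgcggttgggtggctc
Mcm6: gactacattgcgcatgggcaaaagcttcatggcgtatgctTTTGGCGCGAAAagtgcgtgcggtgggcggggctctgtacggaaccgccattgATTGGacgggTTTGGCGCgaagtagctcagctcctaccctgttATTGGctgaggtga
Mcm5: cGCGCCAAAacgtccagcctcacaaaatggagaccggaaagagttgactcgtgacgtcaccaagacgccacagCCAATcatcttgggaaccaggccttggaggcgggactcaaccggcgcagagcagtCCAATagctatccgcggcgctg
Ube2c holds CCAAT 88 and 57 bases before its start and CHR 29 bases before it. Ccnb2 holds 3 CCAAT boxes, 87, 54 and 21 bases before the start. Its CHR matches, at positions -167 and 5 from the start, lie outside the stretch shown. In Mcm6 the capitals at 110 bases before the start hold overlapping E2F-type matches of both strands. A match is a run of letters and was not tested as a site.

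The replication genes come first by role. Mcm2 to Mcm7 encode the helicase ring, Cdc6 and Cdt1 load it, and Gins2 is part of the active helicase. In UMIs per 10000 outside haemoglobin (called per 10000 below), Mcm7 had a level of 2.89 and 2.03 in erythroid cell-like cells of library 1 and 2, against 0.186 and 0.185 in non-blood cells. Mcm6 had 2.47 and 1.78, against 0.122 and 0.132. For both genes the erythroid values of the 2 libraries lay above both non-blood values. Library 1 gave Mcm7 levels of 3.05 in B lineage-like and 1.51 in granulocyte precursor-like cells, and Mcm6 levels of 2.88 and 1.47. The licensing and helicase genes summed to 15.1 per 10000 in erythroid cell-like cells of library 1 and 9.78 (7.72 to 12.2) in library 2, with 16.0 in B lineage-like and 7.68 in granulocyte precursor-like cells of library 1.

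Pcna, the sliding clamp, had a level of 3.45 and 2.92 per 10000 in erythroid cell-like cells and 3.86 in B lineage-like and 1.40 in granulocyte precursor-like cells of library 1. Its non-blood levels were 0.242 and 0.359. A processed copy in the table, Pcna-ps2, held 66 UMIs, so a part of the Pcna reads may have been assigned there. Rrm2, the S phase subunit of ribonucleotide reductase, had 10.6 and 12.1 per 10000 in erythroid cell-like cells, against 7.60 in B lineage-like and 2.15 in granulocyte precursor-like cells of library 1. Non-blood cells held 74 Rrm2 UMIs in library 1 and 3 in library 2. Rrm2 alone gave 29.6% and 40.9% of the replication UMIs of erythroid cell-like cells, 21.9% of those of B lineage-like and 15% of those of granulocyte precursor-like cells. Tyms, thymidylate synthase, had 2.56 and 2.79 per 10000 in erythroid cell-like cells and 0.115 and 0.110 in non-blood cells. Uhrf1 and Hells help copy DNA methylation and pack chromatin after replication. Uhrf1 had 1.13 and 0.762 per 10000 in erythroid cell-like cells, 1.85 in B lineage-like and 0.375 in granulocyte precursor-like cells of library 1. Hells had 0.446 and 0.127, 1.10 and 0.519 in the same order, so the single library 1 values of both genes were higher in B lineage-like than in erythroid cell-like cells, a difference with no replicate.

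Among the mitosis genes, the cyclins and kinases summed to 18.8 and 18.4 per 10000 in erythroid cell-like cells, and to 20.0 in B lineage-like and 6.56 in granulocyte precursor-like cells of library 1. Ccna2, cyclin A2, had 4.99 and 5.08 per 10000 in erythroid cell-like cells, against 0.0416 and 0.00858 in non-blood cells. Ccnb2, cyclin B2, had 3.78 and 4.45, against 0.0225 and 0.00343. The erythroid libraries differed little for either cyclin. Ube2c is the ubiquitin-conjugating enzyme of the anaphase-promoting complex and Cdc20 its activator. Ube2c had 17.6 and 20.4 per 10000 in erythroid cell-like cells, 8.69 in B lineage-like and 2.78 in granulocyte precursor-like cells of library 1. The checkpoint and anaphase genes together had 20.1 and 22.2 in erythroid cell-like, 13.9 in B lineage-like and 4.73 in granulocyte precursor-like cells. Cdc20 had 1.75 and 1.52 in erythroid cell-like cells but 3.44 in B lineage-like and 1.28 in granulocyte precursor-like cells, so the order of the lineages differed between these partners.

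Birc5, survivin of the chromosomal passenger complex, had 7.74 and 9.65 per 10000 in erythroid cell-like, 6.04 in B lineage-like and 2.54 in granulocyte precursor-like cells. Cenpa, the histone variant of centromeres, had 4.77 and 6.99, 4.23 and 1.97. Nusap1 bundles spindle microtubules and Tpx2 activates Aurora A on them. Nusap1 had 5.03 and 6.10 per 10000 in erythroid cell-like, 4.17 in B lineage-like and 1.12 in granulocyte precursor-like cells, and Tpx2 1.71 and 2.16, 1.76 and 0.706. The motor and spindle genes, Kif11 and Hmmr among them, summed to 12.1 and 12.8, 12.0 and 4.28. Top2a untangles chromosomes before they part. It had 3.89 and 4.19 per 10000 in erythroid cell-like cells, against 7.75 in B lineage-like and 2.65 in granulocyte precursor-like cells, and non-blood cells held 42 Top2a UMIs in library 1 and none in library 2. Hmgb2, a chromosomal protein that many cell types also express outside mitosis, had 26.6 and 37.0 per 10000 in erythroid cell-like, 51.4 in B lineage-like and 28.5 in granulocyte precursor-like cells. It gave 26.4% and 30.9% of the mitosis UMIs of erythroid cell-like cells, 42.1% of those of B lineage-like and 52.9% of those of granulocyte precursor-like cells, and 47.0% and 68.9% of the few found in non-blood cells. Without Hmgb2 and Pcna, the replication to mitosis ratios of library 1 were 0.436 in erythroid cell-like, 0.435 in B lineage-like and 0.509 in granulocyte precursor-like cells. The granulocyte precursor-like ratio, the lowest of the 3 with all genes, was then the highest.

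Sums of UMIs per class and library were compared in edgeR (quasi-likelihood test, library as a block, Benjamini-Hochberg adjustment over 5553 genes not used for clustering), and all 40 genes passed the filter on low counts. The filter took in the sums of all classes, so a gene nearly absent from non-blood classes could pass through the blood sums alone. For such a gene a higher call is largely set by the filter. This limit falls on the genes with the largest changes below. Non-blood cells held 42 and 0 UMIs of Top2a and 74 and 3 of Rrm2 in libraries 1 and 2, and few of Ccnb2. Against the mean of 11 non-blood classes, all 40 were higher in erythroid cell-like cells, where 21.1% of all tested genes were called higher and 28.9% lower. The median log2 fold change was 6.73, from 3.39 for Gins2 to 8.78 for Top2a, beside -0.37 over all genes tested. The replication genes had a median of 5.40 and the mitosis genes 7.26. The largest log2 fold changes after Top2a (SE 0.32, adjusted p = 5.27e-28) were those of Ccnb2 (8.75, SE 0.29, adjusted p = 1.49e-45) and Rrm2 (8.65, SE 0.28, adjusted p = 7.59e-19). The smallest after Gins2 (SE 0.38, adjusted p = 7.94e-14) were those of Pcna (3.62, SE 0.21, adjusted p = 2.79e-25) and Mcm4 (3.70, SE 0.26, adjusted p = 7.75e-26). All 40 were above the non-blood level in each library by itself. These fitted values average log levels of classes with few UMIs of the genes and depend on the prior count. As a plain ratio to pooled non-blood cells, the 25 mitosis genes had a median of 85.1-fold in library 1, from 18.1-fold for Bub1b to 235-fold for Hmmr. The 15 replication genes had 33.5-fold, from 10.7-fold for Mcm4 to 172-fold for Rrm2. In library 2 the medians were 210-fold (4 mitosis genes had no UMI in its non-blood cells) and 17.1-fold, so the size of both depends on the library. With DESeq2, Hmmr missed the threshold (adjusted p = 0.30).

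All 40 genes were also called higher in granulocyte precursor-like cells than in non-blood classes by the same edgeR test, where 15.5% of all tested genes were called higher and 23.4% lower (median log2 fold change 5.19, all genes -0.55). The fit also took in the 4 cells of library 2, but the higher calls come from library 1. There all 40 were above the non-blood level with a median of 3.90, whereas in the 4 cells of library 2 only 3 were above it and the median was -0.37. Top2a (7.88, SE 0.39), Ccnb2 (7.01, SE 0.42) and Hmmr (6.62, SE 0.58), a spindle-associated hyaluronan receptor, had the largest fitted values, with adjusted p of 2.26e-22, 3.95e-27 and 5.19e-19. All of these had few non-blood UMIs, so the limit of the filter applies to their calls. Pcna (2.29, SE 0.29), Mcm4 (2.38, SE 0.39) and Mcm7 (2.93, SE 0.27) had the smallest, with adjusted p of 6.69e-10, 1.74e-07 and 1.11e-17. With DESeq2, Top2a (adjusted p = 0.152) and Hmmr (adjusted p = 0.51) missed the threshold. In library 1 the plain ratio had a median of 35.5-fold for the mitosis and 12.3-fold for the replication genes.

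Between the lineages, 26 of the 40 genes were called higher in erythroid cell-like than in granulocyte precursor-like cells by edgeR, 11 of the 15 replication and 15 of the 25 mitosis genes, where 11.0% of all tested genes were called higher and 9.29% lower. The median log2 fold change was 1.34, beside 0.24 over all genes. Ube2c had the largest difference (3.59, SE 0.62, adjusted p = 0.000348), followed by Rrm2 (2.85, SE 0.43, adjusted p = 1.42e-05) and Nusap1 (2.39, SE 0.35, adjusted p = 1.77e-07). Hells (-0.22, SE 0.59, adjusted p = 0.856), Bub1b of the spindle checkpoint (-0.13, SE 0.73, adjusted p = 0.942) and Gins2 (0.01, SE 0.49, adjusted p = 1) lay nearest to or below 0. Among the others that did not pass were Mcm6 (0.78, adjusted p = 0.0634), Hmgb2 (0.93, adjusted p = 0.0616), Top2a (0.91, adjusted p = 0.0511) and Cdc20 (0.62, adjusted p = 0.209). Differences by library had a median of 1.22 in library 1, with 36 of 40 above 0, and of 5.60 in library 2, where the granulocyte precursor-like cells had almost no UMIs of these genes. The fitted values take in both libraries. For Hmgb2 the difference was -0.0992 in library 1 and 2.77 in library 2, so its fitted 0.93 is not the library 1 value. Hells and Bub1b were below 0 in library 1 as in the fit. With haemoglobin counted in the library size, 2 of 36 genes were higher and 9 lower, and with DESeq2 7 were higher, so the count of 26 depends on both choices. The share of all tested genes called under these settings is not given here, so these counts cannot be set against a background.

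**Figure D2:**
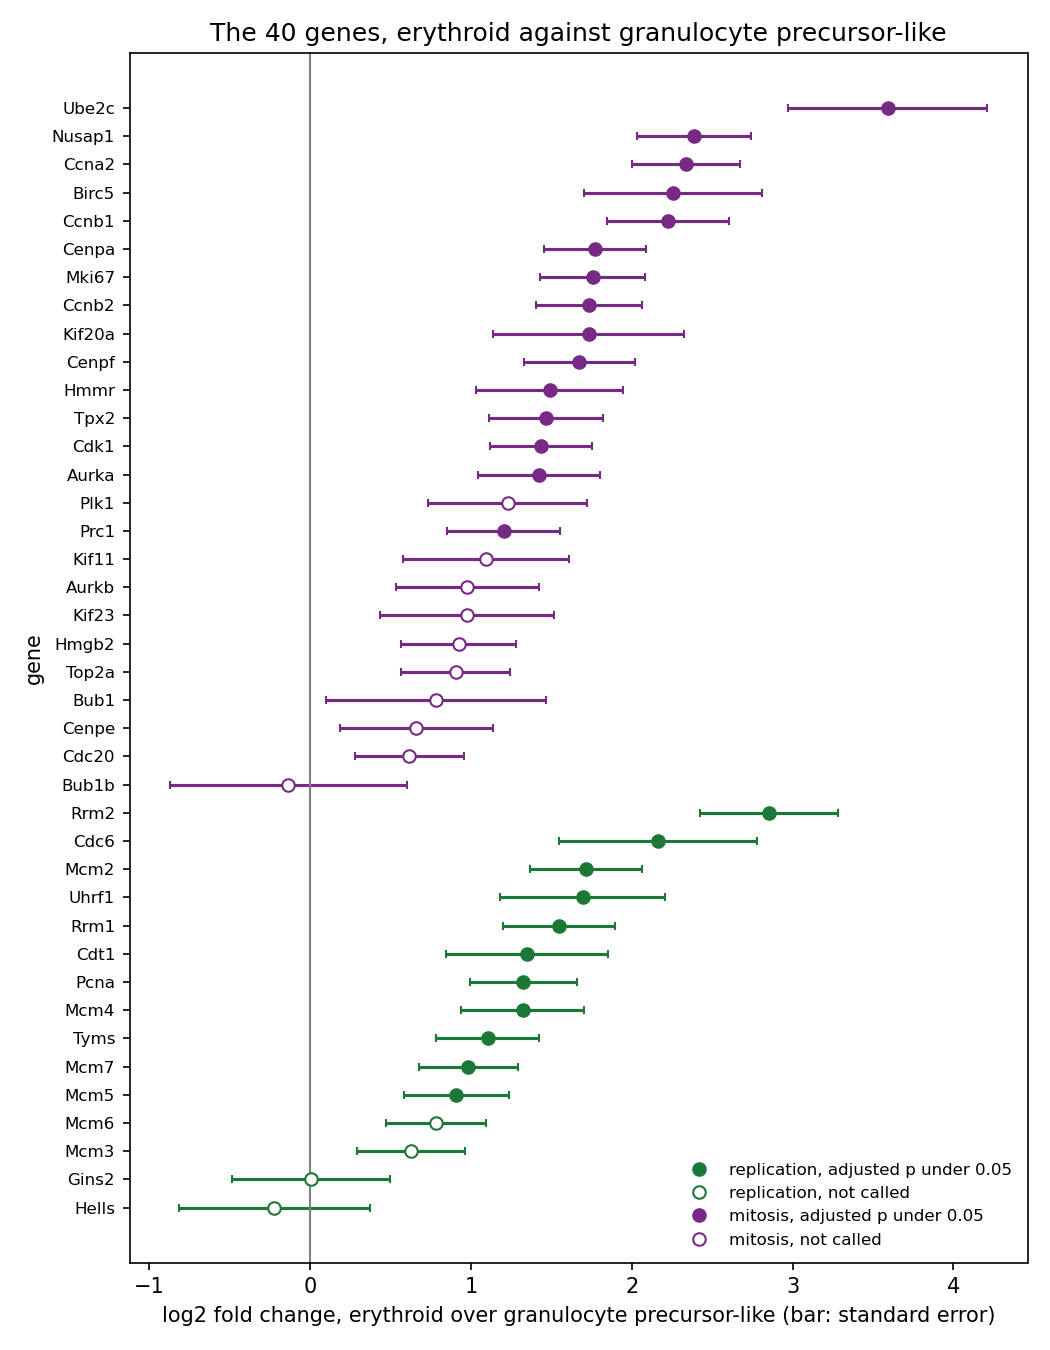
Log2 fold change of each of the 40 genes in erythroid cell-like over granulocyte precursor-like cells, with its standard error from the edgeR fit; filled points had an adjusted p under 0.05. Ube2c (3.59), Rrm2 (2.85) and Nusap1 (2.39) lie farthest to the right, and Hells and Bub1b lie left of 0.

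Within the erythroid class, the balance of the 2 gene groups differed with haemoglobin content, which rises as red cell precursors mature. Cells were divided by the haemoglobin share of their UMIs. Library 1 held 32 cells at 0 to 25%, 10 at 25 to 50%, 60 at 50 to 75%, 141 at 75 to 90% and 167 at 90 to 100%, and library 2 held 2, 1, 5, 5 and 26. Of the 32 cells at 0 to 25%, 31 belonged to a cluster led by Car1, Gfi1b, Klf1 and Gata1, genes of early erythroid cells. 1 barcode at 25 to 50% held 989 UMIs of granulocyte markers beside a median of 5.5 in its group.

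The replication share in library 1 was 0.418% at 0 to 25% haemoglobin, 0.721% at 25 to 50%, 0.509% at 50 to 75%, 0.0460% at 75 to 90% and 0.0444% at 90 to 100%. The mitosis share over the same steps was 0.755%, 2.18%, 2.37%, 0.389% and 0.357%. Library 2 had mitosis shares of 0.651%, 1.15%, 2.37%, 1.64% (1.42 to 1.88) and 0.289%. Both libraries were highest at 50 to 75%, but the low value at 75 to 90% was seen in library 1 alone, and library 2 rests on 5 cells at that step. The replication to mitosis ratio was therefore highest in the cells with least haemoglobin, at 0.554 (0.530 to 0.579), then 0.331, 0.214, 0.118 and 0.124. Library 2 gave ratios of 0.817 (0.606 to 1.10), 0.259, 0.224, 0.0660 and 0.0571, so the first value was the highest and the last 2 the lowest in both libraries. The intervals of the last 2 steps overlapped in each library. Median depth outside haemoglobin was 18350 UMIs per cell in the first step and 783 in the last in library 1, and the part of depth in these values was not tested. With the cells regrouped at 50% and 80% haemoglobin, the ratios of library 1 were 0.492, 0.210 and 0.123.

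**Figure D3:**
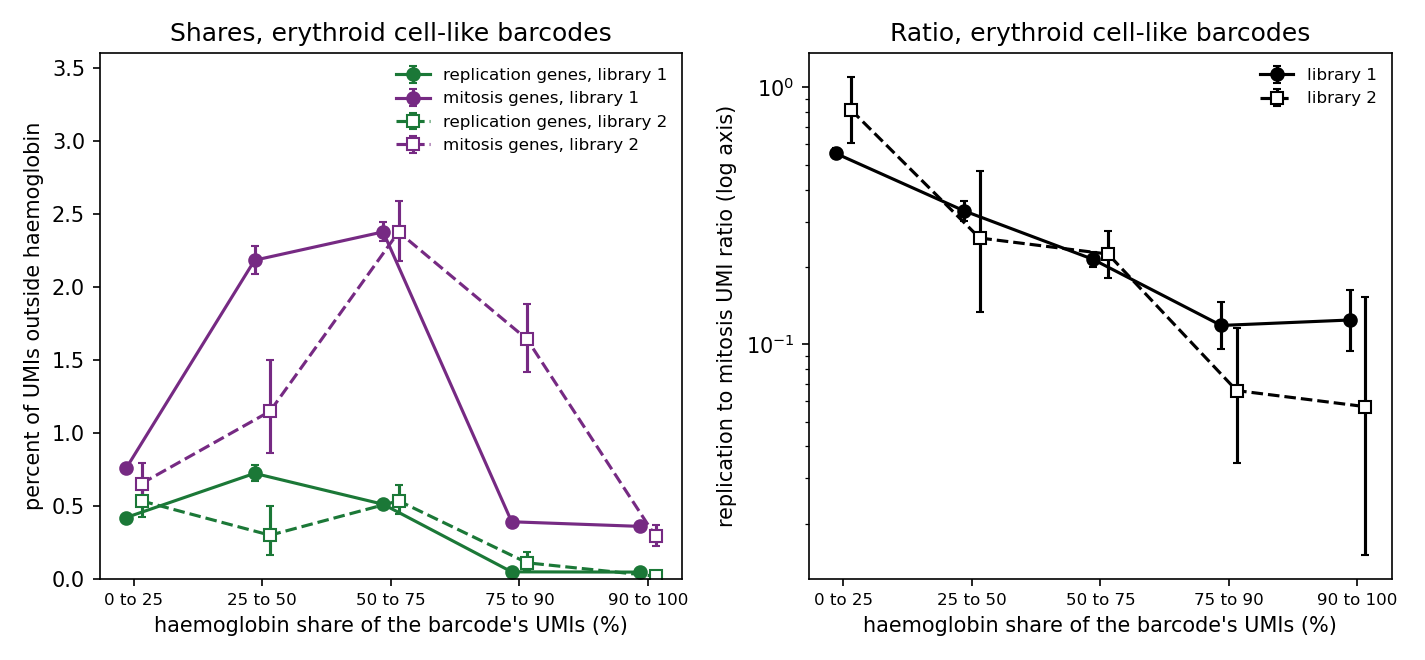
Left, replication (green) and mitosis (purple) genes as a percent of UMIs outside haemoglobin in erythroid cell-like cells, by the haemoglobin share of their UMIs; right, the replication to mitosis UMI ratio on a log axis. Filled circles with solid lines are library 1, open squares with dashed lines library 2, and bars are 95% intervals of counting; the ratio goes from 0.554 to 0.124 in library 1 and from 0.817 to 0.0571 in library 2.

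Gene by gene in library 1, all 25 mitosis genes had a higher level at 50 to 75% than at 0 to 25% haemoglobin, by a median of 3.23-fold (1.42 to 7.39). Of the 15 replication genes, 3 had a higher level there, and the median was 0.601-fold. Over all steps, 11 replication genes had their highest level at 25 to 50%, a step of 10 cells, and 3 at 0 to 25%. Rrm2 had 8.30 per 10000 at 0 to 25%, 26.0 at 25 to 50% and 26.1 at 50 to 75%, against 1.90 and 1.58 in the last 2 steps. Mcm6 had 3.52, 4.89, 1.65, 0.181 and 0.143, and Mcm5 3.18, 2.96, 1.37, 0.316 and 0.215. These 2 helicase genes were thus already lower at 50 to 75% haemoglobin, while Rrm2 kept the level it had at 25 to 50%. Hells was at 0.803 per 10000 in the first step and at 0 UMIs of 218669 in the third. Rrm2 made up 19.9% of the replication UMIs in the first step and 51.2% in the third in library 1, and 14.1% and 56.0% in library 2.

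In library 1 most mitosis genes had low levels once haemoglobin passed 75%. Mki67, the proliferation antigen Ki-67, had 2.67 per 10000 at 0 to 25%, 9.18, 10.4, 0.767 and 0.501, and Top2a had 3.29, 8.67, 9.79, 0.271 and 0.143. Ube2c and Nusap1 had a different course. Ube2c had 6.08, 31.7, 45.0, 19.7 and 21.8 per 10000, and Nusap1 had 1.77, 8.87, 11.9, 6.55 and 6.38. In library 2 Ube2c had 4.38, 4.24, 27.6, 25.8 and 25.2 per 10000 and Nusap1 0, 0, 11.5, 14.1 and 2.47. Ube2c therefore stayed near its highest level in the most haemoglobin-rich cells of library 2, where 22 of 26 cells had a UMI of it. In library 1 its level in the last 2 steps lay between those of the first and the second. It made up 8.06% of the mitosis UMIs at 0 to 25% haemoglobin and 60.9% (56.5 to 65.2) at 90 to 100% in library 1, and 6.73% and 87.1% (77.0 to 93.9) in library 2. The mitosis share of the most mature step is thus largely the level of a single gene. Non-blood cells, most of which should lack the gene, had Ube2c levels of 0.0907 and 0.0103 per 10000.

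**Figure D4:**
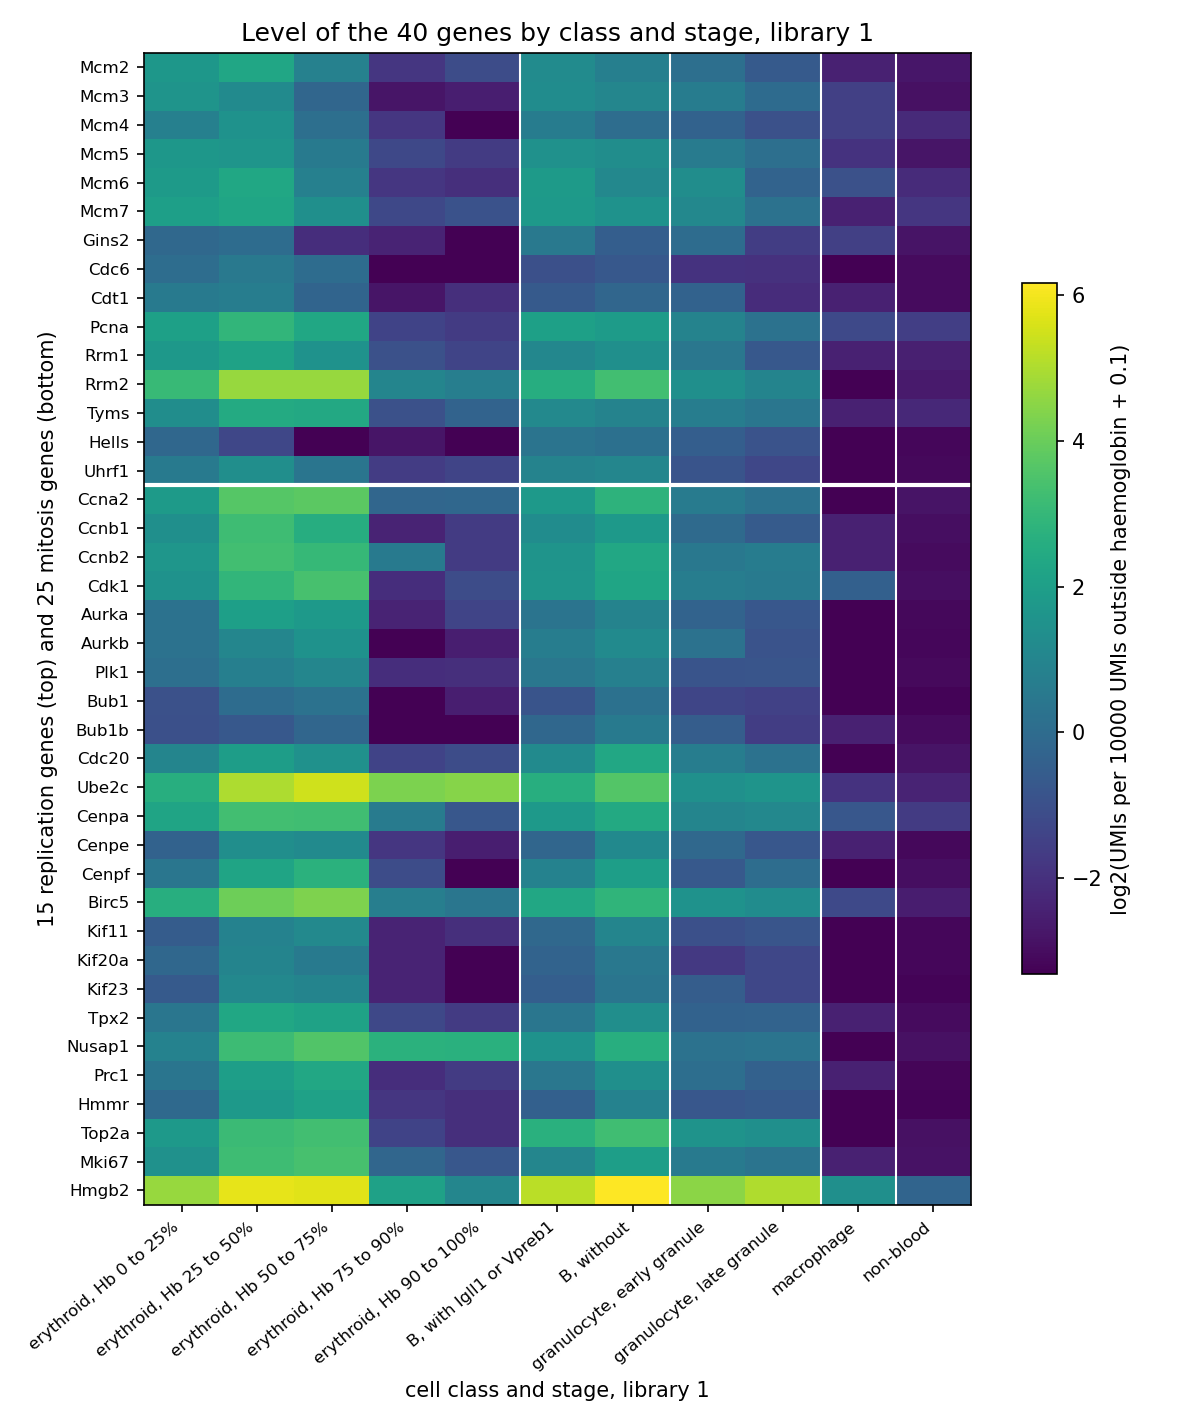
Level of each of the 40 genes in library 1, as log2 of UMIs per 10000 UMIs outside haemoglobin plus 0.1 (colour), by cell class and stage; the white horizontal line divides replication from mitosis genes. Columns of erythroid cells with 75% haemoglobin or more are dark for most genes, while Ube2c (19.7 and 21.8 per 10000) and Nusap1 (6.55 and 6.38) remain bright.

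B lineage-like cells were divided by whether a cell had a UMI of Igll1 or Vpreb1, the surrogate light chain genes of early B cell precursors. In library 1 the 28 cells with such a UMI had a replication share of 0.349% (0.331 to 0.367) and a mitosis share of 0.882% (0.853 to 0.911). The 44 cells without had 0.343% (0.323 to 0.365) and 1.67% (1.62 to 1.71). The replication shares overlapped and the mitosis share was higher in the second group, so the ratio was 0.395 in the first and 0.206 in the second. Ube2c had 6.05 and 12.2 per 10000 in these groups, Hmgb2 35.9 and 71.7, and Mcm6 3.49 and 2.07. The first group was also deeper, with a median of 11792 against 6355 UMIs per cell, and the part of depth in the division was not tested. The single library 2 cell, without either gene, had a ratio of 0.153.

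Granulocyte precursor-like cells were divided by whether Mpo, Elane, Prtn3 and Ctsg, genes of early granules, had more UMIs than Ngp, Camp and Ltf, genes of later granules. In library 1 the 20 cells led by early granule genes had a replication share of 0.190% (0.175 to 0.206) and a mitosis share of 0.50% (0.475 to 0.526). The 41 other cells had 0.106% (0.0962 to 0.117) and 0.570% (0.546 to 0.594). The ratio was 0.380 (0.345 to 0.418) in the first and 0.186 (0.167 to 0.207) in the second. Cells with a tie were counted in the second group. In a finer clustering (Leiden resolution 2) the clusters of this name were led by Prss34, Mpo, Ctsg and Mcpt8 (41 cells) and by Ngp and Camp (26 cells). The groups thus need not be steps of 1 path. In each of the 3 lineages the group taken as earlier had the higher ratio, with 1 library behind the B lineage-like and granulocyte precursor-like values. The 4 cells of library 2 belonged to the second group, and their mitosis share of 0.0538% (0.0301 to 0.0888) lay far below the 0.570% of that group in library 1.

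Cells differ in depth, so each was thinned to 1000 UMIs outside haemoglobin and counted if it still held at least 3 replication genes, or at least 3 mitosis genes other than Hmgb2. In library 1 this left 277 of 410 erythroid cell-like cells. Of these, 54 (19.5%) held 3 replication genes, 122 (44.0%, 38.1 to 50.1) held 3 mitosis genes, and 52 held both. Nearly all erythroid cell-like cells with replication genes thus also held mitosis genes. Of the 72 B lineage-like cells, 34 (47.2%, 35.3 to 59.3) held 3 replication genes, 48 (66.7%, 54.6 to 77.3) held 3 mitosis genes, and 20 held both. Of the 61 granulocyte precursor-like cells, 7 (11.5%, 4.74 to 22.2) held 3 replication genes, 18 (29.5%, 18.5 to 42.6) held 3 mitosis genes, and 0 held both. In library 2, 3 of 24 erythroid cell-like cells held 3 replication genes and 9 held 3 mitosis genes. By step, 22 of the 32 erythroid cells at 0 to 25% haemoglobin held both, and 21 of the 60 at 50 to 75%. At 75 to 90%, 25 of 129 held 3 mitosis genes and 0 held 3 replication genes. Without thinning, 84.7% of B lineage-like cells held 3 replication genes and 91.7% held 3 mitosis genes, and both shares were 55.7% in granulocyte precursor-like cells.

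**Figure D5:**
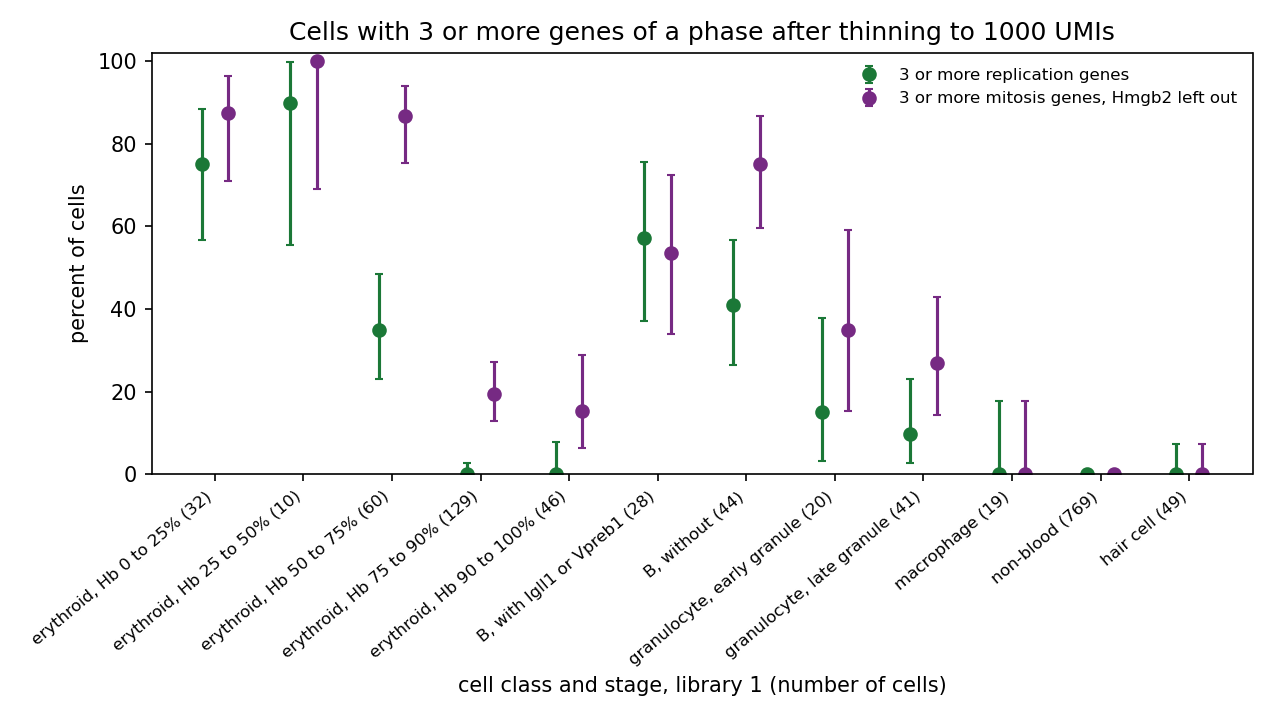
Percent of cells of library 1 with at least 3 replication genes (green) or at least 3 mitosis genes other than Hmgb2 (purple) after thinning to 1000 UMIs outside haemoglobin, by class and stage, with the number of cells in parentheses and 95% binomial intervals. Erythroid cells up to 75% haemoglobin and B lineage-like cells lie highest, and macrophage-like, non-blood and hair cell-like cells lie at 0.

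No non-blood cell reached 3 replication or 3 mitosis genes after thinning, 0 of 769 in library 1 (upper limit 0.479%) and 0 of 584 in library 2 (0.630%), nor did any of the 49 and 4 hair cell-like cells. Among macrophage-like cells, 1 of 16 in library 2 held 3 replication genes. Without thinning, 6 non-blood barcodes, all of library 1, held at least 6 mitosis genes other than Hmgb2. The first lay among hair cell-like cells, held 23 of these genes, had 119 mitosis UMIs with Hmgb2 counted and was marked as a doublet by Scrublet. It had 62 UMIs of hair cell markers and 27 of granulocyte markers, whose median in its class was 5. The second, in cluster 3, held 12 of the genes and 33 mitosis UMIs with Hmgb2, beside 325 UMIs of chondrocyte and 36 of osteoblast markers. The fourth was again among hair cell-like cells and held 9 replication genes and 6 mitosis genes, with 18 replication and, Hmgb2 counted, 19 mitosis UMIs and 122 UMIs of hair cell markers. It was not marked as a doublet. The other 3 lay in cluster 2 and had 33688 to 55733 UMIs, against a class median of 18783. The part of depth and of RNA from other cells in these barcodes was not tested. None of the 6 reached 3 genes of a phase after thinning, so the 0 above does not mean that such genes were absent. The unthinned count used 6 genes here but 3 in the blood lineages, and the non-blood count at 3 is not given. It would take in more cells: cluster 15 of library 2 reached a maximum of 4 mitosis genes.

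Each non-blood class was also compared with the mean of the others by edgeR, which gave 29 higher and 2 lower calls of 440. Hair cell-like cells held 16 of the higher calls, where 23.9% of all tested genes were called higher. Plk1, the mitotic polo-like kinase, had the largest log2 fold change there (5.26) on 13 and 1 UMIs in the 2 libraries. The count in hair cell-like cells was 7 without the barcodes marked by Scrublet, 5 without the 6 barcodes above and 6 with DESeq2, so it depends on these choices. Cluster 2 had 4 higher calls (15.0% of all genes), and 7 without the 6 barcodes. The other higher calls were 2 in cluster 3 (10.2%), 2 in fibroblast-like cells (14.8%), and 1 each in cluster 9 (17.2%), cluster 10 (9.63%), cluster 15 (16.6%), nonsensory epithelium-like (13.8%) and supporting cell-like cells (15.6%). Both lower calls lay in cluster 9, where 5.60% of all genes were lower. Lower calls took 10.5% of all genes in clusters 2 and 15, 12.1% in hair cell-like, 7.58% in fibroblast-like, 5.28% in supporting cell-like and 3.08% in nonsensory epithelium-like cells, 2.77% in cluster 3 and 5.11% in cluster 10. In the remaining classes, clusters 13 and 18, 12.9% and 8.72% of all genes were higher and 7.02% and 4.54% lower. In the main fit the share of the 40 genes called was at or below the background of its class in all but hair cell-like cells. That excess was not kept: counts of 7, 5 and 6 in hair cell-like cells lie below the 23.9% of the main fit. The 7 calls in cluster 2 without the 6 barcodes lie above its 15.0%. The backgrounds of those other settings are not given here.

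Other genes of the cell cycle, from lists drawn up beside the members, had a like pattern. The lists were drawn up with earlier results of these data known and went through the same filter, so they are no independent support. Of 28 tested further replication genes, 28 were higher in erythroid cell-like and 26 in granulocyte precursor-like cells than in non-blood classes by edgeR, with median log2 fold changes of 3.40 and 2.63. Of all tested genes, 21.1% and 15.5% were called higher in these comparisons. Tk1, thymidine kinase, had 7.46 (SE 0.27, adjusted p = 5.15e-50) in erythroid cell-like cells. Of 37 tested further mitosis genes, 37 and 34 were higher, with medians of 6.16 and 4.90. Casc5, a kinetochore scaffold, had 8.75 (SE 0.47, adjusted p = 1.32e-33) in erythroid cell-like cells. Pttg1, securin, was the exception, higher in erythroid cell-like cells (1.58, adjusted p = 1.87e-11) and lower in granulocyte precursor-like cells (-1.26, adjusted p = 0.00146). Between the 2 lineages, 12 of 28 and 18 of 37 were higher in erythroid cell-like cells, where 11.0% of all tested genes were. They were led by Orc1 (3.04, adjusted p = 0.0166), an origin recognition subunit, and Cdc25b (3.82, adjusted p = 1.3e-13), a phosphatase that activates CDK1. Here too the granulocyte precursor-like fits take in only 4 cells of library 2.

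Regulators of the step into S phase were less uniform. Of 20 tested cyclins and G1 regulators, 15 were higher and 2 lower in erythroid cell-like cells than in non-blood classes, where 21.1% and 28.9% of all tested genes were. Ccne1, cyclin E1, had the largest log2 fold change (8.45, SE 0.37, adjusted p = 2.37e-41), with levels of 1.71 and 1.02 per 10000 against 0.020 and 0.00343. Ccnd2, a D-type cyclin, was lower (-0.90, SE 0.35, adjusted p = 0.0255), with 0.481 and 0.508 per 10000 against 4.58 and 5.89. Ccnd3, the D-type cyclin of many blood cells, was higher (1.67, SE 0.20, adjusted p = 5.21e-12), with 4.96 and 4.06 against 1.43 and 1.36. Ccnd2 and Ccnd3 thus differed in opposite directions, in both libraries. Rbl2 (p130) of the retinoblastoma family was the other lower gene (-1.20, adjusted p = 0.0499). Cdk6 had 1.47 per 10000 in erythroid cells of library 1 at 0 to 25% haemoglobin, 0 UMIs of 98090 and of 218669 in the next 2 steps, and Cdk4 had 4.98, 0.204 and 0.412.

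Of 13 tested inhibitors of the cycle, 3 were higher and 5 lower in erythroid cell-like cells, shares not far from the 21.1% and 28.9% of all tested genes. Cdkn1a (p21) had the lowest log2 fold change (-3.40, SE 0.40, adjusted p = 9.65e-13), with 0.113 and 0.127 per 10000 against 1.71 and 1.36 in non-blood cells. Gas1, Cdkn1c (p57), Btg1 and Trp53inp1 were the other lower genes. Cdkn2c (p18, 6.55, SE 0.33, adjusted p = 1.82e-28), Cdkn2d (p19, 2.98, SE 0.22, adjusted p = 6.93e-17) and Gadd45a (3.78, SE 0.19, adjusted p = 9.9e-38) were higher. In library 1 these had their highest levels at different steps of haemoglobin content. Cdkn2d had 0.449, 2.96, 17.7, 0.948 and 0.860 per 10000 from the first to the last step, Cdkn2c 0.789, 2.96, 6.54, 0.361 and 0.358, and Gadd45a 0.748, 2.45, 3.80, 18.3 and 6.59. Cdkn2d and Cdkn2c were thus highest at 50 to 75% haemoglobin, the step with the highest mitosis share, and Gadd45a in the step after it. In granulocyte precursor-like cells 2 inhibitors were higher and 7 lower than in non-blood classes, against 15.5% and 23.4% of all tested genes. Only 4 of these cells came from library 2. Cdkn1b (p27) was among the lower genes (-1.42, SE 0.36, adjusted p = 0.000947).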

How the data were processed

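The deposited matrices hold whole-number UMI counts from droplet single-cell RNA-seq, which the authors made with Cell Ranger 2.1.0 and mm10, per the submitters' processing notes. The sources used here do not give how barcodes were selected. The 1610 and 720 barcodes of library 1 and 2 held 20212520 and 7094752 counts. Filters removed 275 and 60 barcodes for few genes and 4 and 16 for mitochondrial UMIs, and kept barcodes had medians of 10601 and 6116 UMIs. Scrublet (expected rate 2%) marked 2 and 4 kept barcodes, which stayed in. Clustering (scanpy 1.11.5, 2019 features, 30 components, Leiden resolution 1, seed 0) held out 14021 genes, the cell cycle genes among them. A cluster took a name from at least 3 markers and 40% of a list with a log2 fold of 1 or more (CPM, pseudocount 10), and 5 clusters were merged as erythroid cell-like.

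Counts of each class were added up by library. The 14 classes with 4 cells or more in both libraries (28 sums) entered 1 fit in edgeR 4.0.16, with library as a replicate block because the classes of a library share its cells and handling, library sizes outside haemoglobin, haemoglobin genes left out, filterByExpr with a minimum count of 10 (11202 genes) and a threshold of 0.05. DESeq2 1.42.0 was an alternative. The fit was tested on simulated counts. The genes, lists and tests were chosen with earlier results of these data known. Named are, in each role, the 2 genes with most UMIs, in each contrast the 3 largest and 3 smallest changes, and in the other lists called genes. Plk1, Mki67, Mcm5, Ccnd3, Cdk4, Cdk6 and further list genes were named after their values were seen. B lineage-like cells (1 cell in library 2) were not tested. Promoters are from RefSeq (GRCm38.p6). No free RNA correction was made.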

Additional observations from a re-analysis of the deposited data

Results flagged for a closer look

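Barcodes outside the kept cells also held mitosis genes. In the 275 barcodes of library 1 with under 300 genes, 163 of 81486 UMIs outside haemoglobin were from mitosis genes, a share of 0.20% (95% interval 0.171 to 0.233). In the 60 such barcodes of library 2, 27 of 19008 were, a share of 0.142% (0.0936 to 0.207). Both lie above the limits that a count of 0 allows, 0.00368% and 0.0158%. Haemoglobin made up 95.1% and 96.0% of the UMIs of these barcodes. Ube2c gave 82 of the 163 and 22 of the 27 mitosis UMIs, and Nusap1 22 and 3, 2 genes that were also detected in kept erythroid cell-like cells of high haemoglobin content. The replication share was 0.0515% and 0.0105%. Barcodes removed for mitochondrial UMIs held 1 and 3 mitosis UMIs.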

How the results depend on the processing

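Against non-blood classes, DESeq2 no longer called Hmmr in either lineage or Top2a in the granulocyte precursor-like class, while the erythroid against granulocyte comparison depended on the scaling. With haemoglobin in the library size, 2 genes were higher and 9 lower of 36 tested, and with DESeq2 7 were higher. The first of these lowers every gene of the erythroid sums alike, by construction. Of the genes followed by name, 14 then had the opposite sign: Ccnb2 (-0.062), Cdc20 (-1.20), Cenpa (-0.23), Gins2 (-1.87), Hmgb2 (-1.28), Hmmr (-0.29), Mcm4 (-0.59), Mcm6 (-1.135), Mcm7 (-0.94), Pcna (-0.63), Top2a (-0.94), Tpx2 (-0.34), Tyms (-0.82) and Uhrf1 (-0.13). Gins2 was -0.059 with DESeq2. Library was the replicate block, and without the block 20 genes in place of 26 were higher, with Gins2 at -0.0018 and Birc5 past the threshold no longer (2.05, edgeR adjusted p = 0.0753). Without library 1, the median of the granulocyte precursor-like contrast against non-blood classes was -0.37, and without library 2 it was 3.90. Granulocyte contrasts gave no value with at least 10 cells in each library. For the settings of this section no share over all tested genes is given, so the counts show only how far the calls moved. Calls among non-blood classes were 11 higher and 1 lower with DESeq2, 10 higher with at least 10 cells in each library, and 12 higher and 1 lower with a stricter cell filter (500 genes, 10% mitochondrial UMIs).

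That filter gave erythroid replication shares of 0.375% and 0.384% and mitosis shares of 1.04% and 1.48% in libraries 1 and 2. Without Hmgb2 and Pcna the replication share was 0.323% in library 1, the mitosis shares were 0.742% and 0.827% and the ratios 0.436 and 0.321. B lineage-like cells then had 0.308%, 0.708% and a ratio of 0.435, and granulocyte precursor-like cells 0.129%, 0.254% and 0.509. As a mean over cells, erythroid replication shares were 0.166% and 0.0977%, mitosis shares 0.740% and 0.671% and ratios 0.224 and 0.145. B lineage-like cells had 0.330%, 1.46% and 0.226, and granulocyte precursor-like cells a replication share of 0.107% and a ratio of 0.202. With either library left out, the erythroid ratio ranged from 0.246 to 0.355, the mitosis share from 1.01% to 1.20% and the replication share from 0.295% to 0.358%. For B lineage-like cells the ranges were 0.153 to 0.283, 1.22% to 1.57% and 0.240% to 0.346%, and for granulocyte precursor-like cells 0.133 to 0.265, 0.0538% to 0.539% and 0.00718% to 0.143%.

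Shares of cells changed with the thinning, which leaves out cells below its depth. At 2000 UMIs, 56.7% of erythroid, 66.7% of B lineage-like and 27.9% of granulocyte precursor-like cells held 3 replication genes. Of the first 2, 80% and 81.9% held 3 mitosis genes. Erythroid cell-like cells of library 1 had a median of 1339 UMIs outside haemoglobin, and 783 at 90 to 100% haemoglobin. Most of them were thus left out at 2000 UMIs. Erythroid shares at different depths therefore describe different sets of cells, and the part of thinning itself was not tested. Unthinned, B lineage-like shares were 84.7% and 91.7%, and both granulocyte precursor-like shares 55.7%. With 2 genes required, replication shares were 28.2%, 63.9% and 29.5% in the 3 lineages, and mitosis shares 66.4% and 77.8% in the first 2. With 4 required, replication shares were 14.8%, 29.2% and 3.28%, and the erythroid mitosis share 29.6%. In the 150 bases before the start, 8 mitosis promoters held CHR and 4 replication promoters an E2F-type site. The cause of these differences was not tested. The 1 B lineage-like and 4 granulocyte precursor-like cells of library 2 limit what can be said of those lineages.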
